A study of Mus musculus with 38 samples.

Results

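RNA-seq of Tcf21 lineage cells from mouse visceral adipose tissue was compared between wild-type (WT) mice aged 6 months (6M, 2 libraries) and WT mice aged 3 weeks (3W, 7 libraries), both groups on a regular diet. The 9 libraries were the columns titled WT 6M and WT 3W in the deposited WT table, out of 29 RNA-seq libraries and 38 samples in the series, whose other 9 samples are ATAC-seq. Tcf21 is a basic helix-loop-helix transcription factor of the mesenchyme around internal organs. The cells of all groups were tagged through MerCreMer, a Cre recombinase that works only with tamoxifen, and each library was made from 5000 sorted cells. All samples carry the same pair of tamoxifen doses in the labels, 75 mg/kg per day for adults and 100 µg per day for neonates, so the age at which the 6M cells were tagged is not known. The labels do not name the promoter behind MerCreMer, and tagged cells keep their tag whether or not they still make Tcf21 RNA at collection. Groups follow the sample titles. The genotype field reads Tcf21 KO for 2 of the 7 libraries titled WT 3W, replicates 1 and 2, and WT for the other 5 and for both 6M libraries. The labels do not say that libraries came from separate animals, so p-values measure the spread between libraries only. Of the 7 3W libraries, 6 carry a pair number whose meaning is not given, and replicates 3 and 5 share pair number 3. The tests treat the 7 as independent.

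Values are TPM, a transcript abundance scaled by transcript length and by the library's total. Where a gene has 2 values at 6M, they are replicates 1 and 2 in that order, and where it has 3 values at 3W, they are the lowest, the median and the highest of the 7 libraries. Log2 changes are 6M minus 3W on log2(TPM + 1) with the standard error from limma, and adjusted p is limma's Benjamini-Hochberg value over all 15659 genes tested, called below 0.05. Genes at 1 TPM or more numbered 11963 and 11270 at 6M, against 10894 to 12825 at 3W. Pearson correlations of log2(TPM + 1) were 0.916 between the 6M libraries, 0.806 to 0.917 between a 6M and a 3W library, and 0.884 to 0.967 among 3W libraries, so the 6M pair resembled each other about as much as the closest 6M and 3W pairs did. Y-linked Eif2s3y read 37.1 and 77.8 TPM at 6M, against 49.0, 61.0 and 115 TPM at 3W, so Y-linked RNA was present in all 9 libraries. Of 4 tested sex-linked genes, 1 (Ddx3y) was called lower at 6M (25%, against 6.85% of all genes) and 0 higher. All 4 changes were negative (median log2 change -1.39, against -0.24 for all genes), and median-ratio scaling gave 0 lower. Their summed TPM was 69.4 and 123 at 6M, against 114, 174 and 309 at 3W. The cause was not tested. Read depth is unknown because the files hold no counts.

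Fat tissue is built from mesenchymal stromal cells, which divide and lay down matrix in young animals and of which some turn into adipocytes when fat is needed. In mice, stromal cells that express Dpp4 and Pi16 lie in the connective tissue sheets and can give rise to cells further along that path. Dlk1 is among the genes known to hold differentiation back or to mark immature cells. Imprinted genes such as Igf2, Dlk1 and Peg3 are known for growth in early life and for their later silencing. Stromal cells also make chemokines and complement, through which they draw in macrophages and lymphocytes.

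Markers of fibroblast-like stromal cells were abundant at both ages. Dcn, the matrix proteoglycan decorin, read 16946 and 20818 TPM at 6M, against 11084, 16308 and 21164 TPM at 3W, and the difference did not pass the test (0.21 ± 0.30, adjusted p = 0.714). Pdgfra, the receptor that marks adipose stromal cells, read 99.6 and 102 TPM at 6M, against 104, 143 and 188 TPM at 3W and also missed the threshold (-0.51 ± 0.25, adjusted p = 0.21), with both 6M values just below the 3W range. Of the 13 tested stromal progenitor markers, 1 was higher (Ly6a) and 3 lower (Tcf21, Col1a1 and Col3a1) at 6M, and their summed TPM was 44040 and 44334 at 6M, against 31728, 52957 and 59958 at 3W. The stromal identity in the labels was therefore seen in every library. The pan-leukocyte gene Ptprc, which a stromal sort would lack, read 16.0 and 7.66 TPM at 6M, against 0, 0.65 and 1 TPM at 3W (3.01 ± 0.49, adjusted p = 0.000173), and both 6M libraries exceeded all 3W libraries.

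Tcf21 itself (ENSMUSG00000045680, chr10:22817281-22820174, mm10) was lower at 6M, where both values were the lowest of all WT libraries. It read 2.24 and 5.54 TPM at 6M, against 37.6, 47.6 and 109 TPM at 3W (log2 change -3.74 ± 0.49, adjusted p = 9.28e-06). Both 6M libraries lay far below all 7 3W libraries, and the 6M mean was 5.99% of the 3W mean. An exact two-sided permutation test of the 2 libraries against the 7 gave p = 0.0278, the smallest that 36 arrangements allow. The 3W libraries with Tcf21 KO in their genotype field held the lowest (37.6 TPM, replicate 1) and the highest (109 TPM, replicate 2) Tcf21 level of the 7, and without them the log2 change was -3.71.

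At 6M, 626 of the 15659 genes tested were higher (4.00%) and 1073 were lower (6.85%), or 10.8% in either direction. Every count of called list members below is to be read beside these shares of all genes. Both 6M libraries lay above all 3W libraries for 850 genes (5.43%) and below all of them for 1859 (11.9%). Of the called genes, 506 of the higher and 927 of the lower did not overlap between the ages, and 266 called genes overlapped. The balance of directions depended on the scaling. The median gene had a log2 change of -0.24 as deposited, -0.03 after median-ratio scaling and -0.08 after quantile scaling. Genes called higher made up 36.8% of calls as deposited, 64.0% after median-ratio scaling (1001 higher, 563 lower) and 56.5% after quantile scaling (766 higher, 590 lower). Genes called between 6M and 3W and given with values below kept the direction of their call under both scalings unless an exception is named. With only 2 libraries at 6M, single libraries weighed on the calls: without replicate 1, 252 genes were higher and 528 lower, and without replicate 2, 525 were higher and 363 lower. In those fits the lone 6M library was assumed to vary like the other groups, and genes whose call ended are named with their values.

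**Figure D1:**
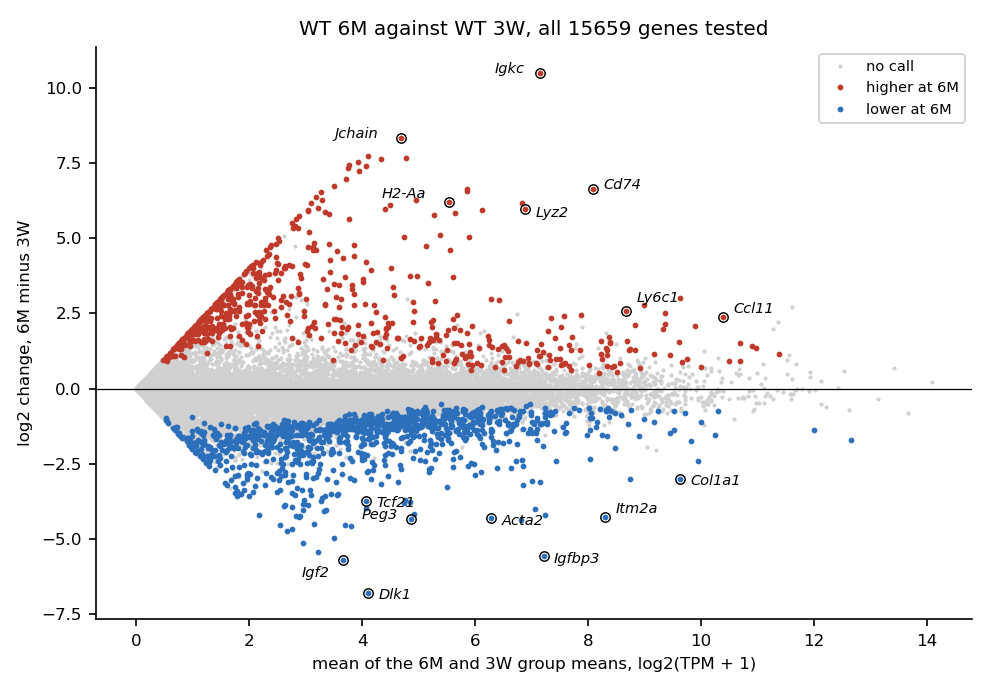
Each point is 1 of the 15659 tested genes, with its mean log2(TPM + 1) over the 6M and 3W libraries on the x axis and its log2 change, 6M minus 3W, on the y axis. Genes called higher (626) or lower (1073) are coloured, and immune genes such as Cd74 lie at the top while Dlk1, Igf2 and Igfbp3 lie at the bottom.

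Among the leading lower genes, several imprinted genes fell by large factors. Dlk1 (ENSMUSG00000040856, chr12:109452823-109463336), an imprinted membrane protein of immature stromal cells, read 0.73 and 0.53 TPM at 6M, against 74.2, 195 and 392 TPM at 3W (log2 change -6.79 ± 0.47, adjusted p = 2.32e-10). Igf2 (ENSMUSG00000048583, chr7:142650766-142666816), the imprinted fetal growth factor, read 0.14 and 1.73 TPM at 6M, against 46.9, 63.7 and 277 TPM at 3W (-5.70 ± 0.59, adjusted p = 4.96e-07). Peg3, an imprinted zinc finger gene, read 9.67 and 2.99 TPM at 6M, against 108, 122 and 192 TPM at 3W (-4.32 ± 0.42, adjusted p = 1.43e-07). For each of them the 6M libraries lay below every 3W library by several fold. Slc38a4, an imprinted amino acid transporter, read 1.26 and 0.1 TPM at 6M, against 13.5, 26.9 and 34.5 TPM at 3W (-3.91 ± 0.42, adjusted p = 9.14e-07), and Plagl1, an imprinted zinc finger regulator, 0.39 and 0 TPM at 6M, against 4.37, 12.6 and 20.5 TPM at 3W (-3.35 ± 0.55, adjusted p = 0.000186). Mest, an imprinted gene known to rise with fat expansion in mice, read 20.7 and 17.1 TPM at 6M, against 45.5, 118 and 279 TPM at 3W (-2.62 ± 0.51, adjusted p = 0.0011). Grb10, an adaptor that restrains insulin and IGF signalling, read 58.9 and 28.4 TPM at 6M, against 117, 125 and 252 TPM at 3W (-1.86 ± 0.33, adjusted p = 0.000416). Its call was lost without 6M replicate 2 (adjusted p = 0.0618). Of 21 tested imprinted growth genes, 11 were lower and 0 higher (median log2 change -1.26, against -0.24 for all genes), and 6.85% of all genes were lower. With 6M replicate 1 or replicate 2 left out, 8 and 7 of the 21 were lower.

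**Figure D2:**
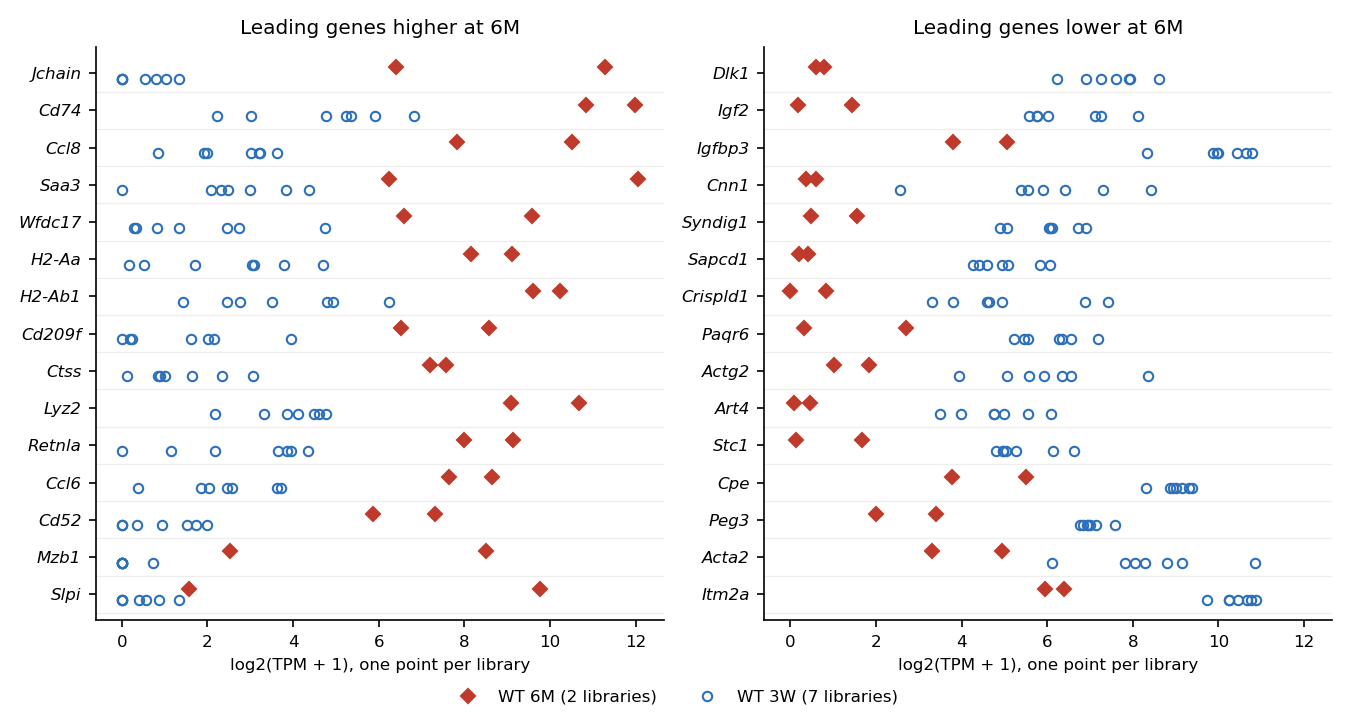
The 30 leading genes, 15 in each direction, are listed down the y axis, and log2(TPM + 1) in each library is on the x axis, with diamonds for the 2 6M libraries and circles for the 7 3W libraries. No diamond overlaps the circles of its gene, a property used to choose the genes, and the 6M diamonds lie far apart for Jchain, Saa3, Mzb1 and Slpi.

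Lower genes of the insulin-like growth factor axis went beyond Igf2. Igfbp3 (ENSMUSG00000020427, chr11:7206086-7213923), the main carrier of IGFs in blood and a secreted product of fibroblasts, read 32.4 and 12.9 TPM at 6M, against 322, 1009.6 and 1749.95 TPM at 3W (log2 change -5.57 ± 0.71, adjusted p = 7.26e-06). Igf2bp2, an RNA-binding protein that binds Igf2 transcripts, read 7.87 and 0.78 TPM at 6M, against 27.0, 32.6 and 37.5 TPM at 3W (-3.09 ± 0.45, adjusted p = 4.46e-05). Stc1, a secreted inhibitor of the proteases that free IGFs from their carriers, read 2.21 and 0.09 TPM at 6M, against 27.1, 31.6 and 98.5 TPM at 3W (-4.50 ± 0.81, adjusted p = 0.000468). No 6M library reached the lowest 3W library for any of these genes. In all, 9 of 21 tested members were lower (42.9%, against 6.85% of all genes) and 0 higher (median -1.17). The 9 were Igf2, Igfbp3, Stc1, Igf2bp2, Pappa2, Pappa, Irs2, Irs1 and Igf2r. Igf2 and Igf2r are also in the imprinted list. Median-ratio and quantile scaling each gave 6 lower members, and 4 were lower without 6M replicate 1 and 5 without 6M replicate 2.

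Of 17 tested genes in a list named inhibitors of adipogenesis, 11 were lower (64.7%, against 6.85% of all genes) and 0 higher. Their median log2 change was -1.38. The name is that of the list, and whether each member restrains fat cell formation was not tested. Sfrp1, a secreted Wnt inhibitor, read 97.8 and 22.8 TPM at 6M, against 302, 381 and 672 TPM at 3W (log2 change -3.11 ± 0.37, adjusted p = 2.71e-06). Id2, a partner protein that keeps basic helix-loop-helix factors from binding DNA, read 24.3 and 77.8 TPM at 6M, against 169.8, 375 and 715 TPM at 3W (-3.07 ± 0.42, adjusted p = 1.99e-05). Wnt5a, a Wnt ligand that signals mainly without beta-catenin, read 6.59 and 6.81 TPM at 6M, against 21.4, 52.2 and 68.2 TPM at 3W (-2.53 ± 0.44, adjusted p = 0.000321). Every 6M value of these genes lay below the lowest 3W value. Nr2f2, an orphan nuclear receptor, read 12.1 and 13.9 TPM at 6M, against 49.9, 85.6 and 305 TPM at 3W (-2.76 ± 0.51, adjusted p = 0.000645). Gata2, Pdgfa, Hes1, Sox9, Zfp521 and Foxo1 were lower too, and with Dlk1 they complete the 11. Of the 17, 7 were lower after median-ratio scaling, 8 after quantile scaling, 7 without 6M replicate 1 and 6 without 6M replicate 2.

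Several of these genes act in Wnt or BMP signalling. Of 32 Wnt pathway genes, 6 were lower (18.8%, against 6.85% of all genes) and 1 higher (3.12%, against 4.00%), with a median of -0.47. Rspo3, a secreted enhancer of Wnt signals, read 1.31 and 1.74 TPM at 6M, against 22.7, 34.0 and 81.2 TPM at 3W (log2 change -4.04 ± 0.55, adjusted p = 1.91e-05). Sfrp4, another secreted Wnt binder, ran the other way at 2399 and 784 TPM at 6M, against 221, 329.9 and 479 TPM at 3W (2.14 ± 0.47, adjusted p = 0.00379), but its call was lost without 6M replicate 1 (adjusted p = 0.221). Both Rspo3 values at 6M were below, and both Sfrp4 values above, all 3W libraries. Of 29 BMP pathway genes, 7 were lower and 1, Bmp6, higher (median -0.76), although Bmp6 lost its call without 6M replicate 2 (adjusted p = 0.0935). Bambi, a decoy receptor that dampens BMP and TGF-beta signals, read 5.48 and 6.86 TPM at 6M, against 22.6, 53.0 and 70.5 TPM at 3W (-2.70 ± 0.37, adjusted p = 2.22e-05). Quantile scaling gave 4 lower BMP genes. With 6M replicate 1 left out, 5 Wnt and 3 BMP genes were lower, and with 6M replicate 2 left out, 4 and 5.

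Adipogenic transcription factors showed few calls, all of them lower. Pparg, the master regulator of adipocyte differentiation, read 22.5 and 27.7 TPM at 6M, against 10.5, 29.3 and 80.5 TPM at 3W (-0.17 ± 0.56, adjusted p = 0.883), and the 6M values sat inside the 3W range. Of 19 tested adipogenic transcription factors 3 were lower (15.8%, against 6.85% of all genes) and 0 higher. The 3 were Klf5, Klf9 and Klf15, and 14 of the 19 changes were negative and 5 positive. Klf5, which is induced early in adipogenesis in mouse cells, read 0.4 and 2.06 TPM at 6M, against 13.8, 29.9 and 54.5 TPM at 3W (log2 change -3.82 ± 0.52, adjusted p = 1.69e-05). Klf9, a glucocorticoid-responsive factor, read 67.8 and 77.5 TPM at 6M, against 134, 214 and 240.4 TPM at 3W (-1.46 ± 0.27, adjusted p = 0.000587). Both 6M libraries were below all 3W libraries for Klf5 and Klf9. Klf15, at 18.5 and 8.34 TPM at 6M, against 22.6, 33.1 and 53.2 TPM at 3W (-1.41 ± 0.42, adjusted p = 0.0303), lost its call after median-ratio scaling (adjusted p = 0.0935), after quantile scaling (0.0978), without 6M replicate 2 (0.472) and without 3W replicate 3 (0.0524). Of 24 lipid storage and adipokine genes, 1 was lower and 0 higher (median -0.75), and of 10 adipocyte markers limma called 0 (5 at an unadjusted p under 0.05), with a summed TPM of 295 and 338 at 6M inside the 3W range of 201 to 6998.

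Smooth muscle contractile genes were lower, in a list that also marks pericytes and smooth muscle cells. Acta2, smooth muscle actin, read 8.94 and 29.9 TPM at 6M, against 68.6, 309.7 and 1845 TPM at 3W (log2 change -4.31 ± 0.93, adjusted p = 0.00292). Cnn1, calponin, which binds actin in smooth muscle and activated fibroblasts, read 0.29 and 0.53 TPM at 6M, against 4.87, 58.5 and 345 TPM at 3W (-5.44 ± 1.22, adjusted p = 0.00403), and Actg2, enteric smooth muscle actin, 1.04 and 2.56 TPM at 6M, against 14.4, 60.1 and 327 TPM at 3W (-4.54 ± 1.02, adjusted p = 0.00417). The 3W libraries themselves spanned more than 20-fold for each of the 3 genes, and all of them exceeded both 6M libraries. Without 6M replicate 1 the calls ended, with adjusted p of 0.106 for Acta2, 0.0594 for Cnn1 and 0.0812 for Actg2. Lmod1, a nucleator of actin filaments in smooth muscle, read 0.11 and 0 TPM at 6M, against 3.72, 9.81 and 38.9 TPM at 3W (-3.40 ± 0.58, adjusted p = 0.000284) and was called without either 6M library. Of 14 tested list members 8 were lower and 0 higher (median -2.16), with 6 lower after median-ratio scaling, 2 without 6M replicate 1 and 3 without 6M replicate 2. Their summed TPM was 235 and 462 at 6M, against 576, 1336 and 5219 at 3W, and whether cells of this type or contractile RNA per cell differed cannot be told apart in bulk libraries, as for every cell type below.

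Collagen genes were lower for 7 of 19 tested members (36.8%, against 6.85% of all genes) and higher for 0 (median -1.03). Col1a2 read 413 and 447 TPM at 6M, against 1449, 2341 and 3804 TPM at 3W (log2 change -2.40 ± 0.30, adjusted p = 7.1e-06), and Col1a1, which encodes the other chain of type I collagen, 366 and 214 TPM at 6M, against 909, 2009 and 6194 TPM at 3W (-2.99 ± 0.60, adjusted p = 0.0014). Col16a1, a collagen that lies on fibril surfaces, read 14.8 and 12.1 TPM at 6M, against 35.2, 88.7 and 136 TPM at 3W (-2.36 ± 0.36, adjusted p = 7.94e-05). Every 3W library was above both 6M libraries for these 3 genes. Col3a1, the type III chain, read 2133 and 3008 TPM at 6M, against 3303, 6838 and 11189 TPM at 3W (-1.38 ± 0.41, adjusted p = 0.0289), and this smaller difference lost its call after median-ratio scaling (adjusted p = 0.108), without 6M replicate 1 (0.266) and without 6M replicate 2 (0.0885). Col1a1 lost its call without 6M replicate 2 (0.0545). Col12a1, Col11a1 and Col5a2 were the other 3 lower collagens. Without 6M replicate 1 there were 5 lower collagens, and without 6M replicate 2 there were 3.

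Other matrix genes were mixed. Mfap4, a protein of elastic microfibrils, read 163 and 138 TPM at 6M, against 597, 1275 and 2561 TPM at 3W (log2 change -3.01 ± 0.45, adjusted p = 5.09e-05). Fmod, the proteoglycan fibromodulin that binds collagen fibrils, read 4.58 and 8.23 TPM at 6M, against 29, 112 and 146 TPM at 3W (-3.79 ± 0.57, adjusted p = 5.81e-05). Matn2, a filament-forming adaptor protein, read 118 and 112 TPM at 6M, against 362, 628 and 868 TPM at 3W (-2.33 ± 0.28, adjusted p = 2.86e-06). All 7 3W libraries were above both 6M libraries for each. Sparc, a collagen-binding protein, read 2649 and 4832 TPM at 6M, against 7039, 12845 and 17564 TPM at 3W (-1.71 ± 0.35, adjusted p = 0.00201), but lost its call without 6M replicate 1 (0.116). Of 33 tested structural matrix genes 8 were lower (24.2%, against 6.85% of all genes) and 1, Fbln2, higher (3.03%, against 4.00%), and the list median of -0.24 turned to 0.07 after median-ratio scaling. Fbln2 lost its call without 6M replicate 1 (0.296) and without 6M replicate 2 (0.102), and 6 and 4 genes were then lower. Lox, which crosslinks collagen and elastin, read 32.0 and 19.3 TPM at 6M, against 117, 141 and 177 TPM at 3W (-2.46 ± 0.34, adjusted p = 2.15e-05). Tgfbi, a matrix protein induced by TGF-beta, read 38.2 and 36 TPM at 6M, against 121, 473 and 660.4 TPM at 3W (-3.20 ± 0.54, adjusted p = 0.000252), and it was 1 of 5 lower among 18 TGF-beta response genes, of which 2 were lower without 6M replicate 1 and 4 without 6M replicate 2. Neither gene overlapped between the ages.

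Transcription factors that carry regional identity were partly lower, with 8 of 30 lower (26.7%, against 6.85% of all genes) and 0 higher. Among the 8 were Tcf21, Nr2f2, Meis1, Gata6, Wt1, Hoxa5 and Hoxc6. Median-ratio and quantile scaling each gave 4 lower and 1 higher. Meis1, a Hox cofactor, read 29.7 and 42.9 TPM at 6M, against 96.5, 125 and 254 TPM at 3W (log2 change -1.83 ± 0.34, adjusted p = 0.00066). Hoxa5, a homeobox gene of trunk and fat tissue, read 12.8 and 12.6 TPM at 6M, against 18.7, 30.5 and 48.9 TPM at 3W (-1.23 ± 0.31, adjusted p = 0.0101). Neither overlapped between the ages. Hoxa5 lost its call after median-ratio scaling (adjusted p = 0.061), after quantile scaling (0.0689), without 6M replicate 1 (0.0881) and without 6M replicate 2 (0.0955). Wt1, a gene of mesothelium and visceral fat stroma, read 48.5 and 15.2 TPM at 6M, against 32.6, 78.7 and 106 TPM at 3W (-1.30 ± 0.40, adjusted p = 0.0328), with 6M replicate 1 inside the 3W range. The Wt1 call ended after median-ratio scaling (0.124), after quantile scaling (0.104), without 6M replicate 2 (0.697) and without 3W replicate 3, 6 or 7 (0.0501 to 0.0523). In all 7 of the 30 were lower without 6M replicate 1 and 3 without 6M replicate 2.

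Other genes lower at 6M came from different lists or from the leading genes and are given singly. Fgfr2, an FGF receptor, read 0.64 and 0 TPM at 6M, against 7.6, 13.6 and 22.5 TPM at 3W (log2 change -3.43 ± 0.55, adjusted p = 0.000124). Rbp4, the retinol carrier, read 22.0 and 52.0 TPM at 6M, against 302, 868 and 981 TPM at 3W (-4.21 ± 0.66, adjusted p = 9.9e-05). Itm2a, a membrane protein of developing cartilage and muscle in mice, read 61.1 and 82.6 TPM at 6M, against 845, 1411 and 1883 TPM at 3W (-4.26 ± 0.36, adjusted p = 2.39e-08). Each 3W library exceeded both 6M libraries several-fold for these genes. Cpe, a carboxypeptidase that trims prohormones, read 12.7 and 44.1 TPM at 6M, against 318, 509.97 and 664 TPM at 3W (-4.36 ± 0.47, adjusted p = 9.14e-07). Lepr, Prlr and Agtr2 were picked after their values were seen. Lepr, the leptin receptor, read 0 and 0.12 TPM at 6M, against 7.77, 15.6 and 54.3 TPM at 3W (-4.20 ± 0.75, adjusted p = 0.000416). Prlr, the prolactin receptor, read 3.82 and 2.74 TPM at 6M, against 26.2, 79.0 and 106 TPM at 3W (-3.98 ± 0.48, adjusted p = 3.42e-06), and Agtr2, the type 2 angiotensin receptor, 0.81 and 0.64 TPM at 6M, against 12.9, 35.2 and 52.1 TPM at 3W (-4.24 ± 0.60, adjusted p = 2.75e-05). All 3 were called without either 6M library, and none overlapped between the ages.

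Few cell division genes were called, although 32 of the 42 changes were negative and 10 positive. The median over all tested genes was -0.24. Of 42 tested cell cycle and replication genes 1, Mcm7, was lower and 0 were higher (median -0.49), and Mcm7 lost its call without 6M replicate 2 (adjusted p = 0.507). Mki67, a marker of dividing cells, read 0.93 and 0.42 TPM at 6M, against 0.02, 1.41 and 5.01 TPM at 3W (-0.52 ± 0.58, adjusted p = 0.624), with both 6M values inside the 3W range. Cdkn1a, the cell cycle inhibitor p21, was lower at 138 and 158 TPM at 6M, against 187, 503 and 617 TPM at 3W (-1.54 ± 0.38, adjusted p = 0.00916), but was not called after median-ratio scaling (adjusted p = 0.0503), without 6M replicate 1 (0.112) or without 6M replicate 2 (0.062). Of 15 tested cell cycle inhibitor genes 4 were lower (26.7%, against 6.85% of all genes) and 0 higher, with 1 lower after median-ratio scaling and 3 after quantile scaling. Among 24 cholesterol and fatty acid synthesis genes limma called 0 (3 at an unadjusted p under 0.05), and among 23 hypoxia and glycolysis genes 1 was lower.

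**Figure D3:**
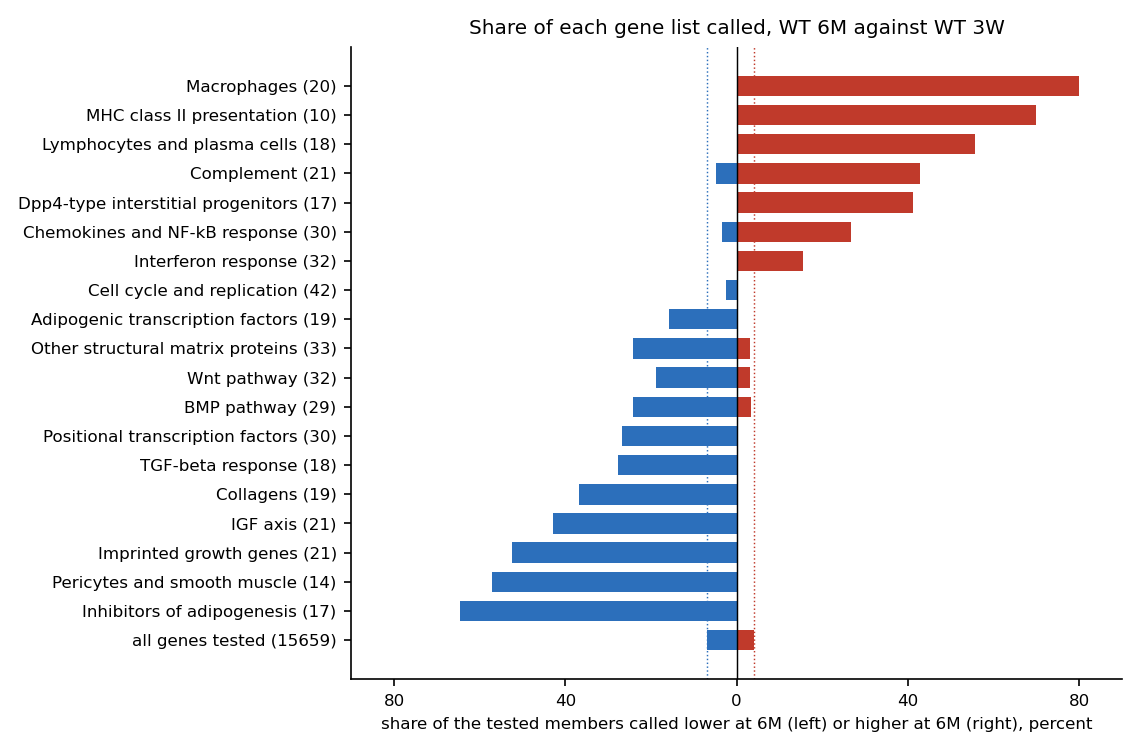
For each gene list on the y axis, bars on the x axis give the percent of tested members called higher or lower at 6M against 3W, with all 15659 genes for scale (4.00% higher, 6.85% lower). Macrophage (16 of 20) and MHC class II (7 of 10) members were mostly higher. Members of the lists named imprinted growth genes (11 of 21), inhibitors of adipogenesis (11 of 17) and pericytes and smooth muscle (8 of 14) were mostly lower.

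Genes typical of Dpp4-expressing interstitial progenitors were higher for 7 of 17 tested members (41.2%, against 4.00% of all genes) and lower for 0. Their median log2 change was 0.76. Their summed TPM was 9758 and 8798 at 6M, against 2759, 7778 and 8922 at 3W, so replicate 2 lay inside the 3W range. Dpp4, the peptidase used to sort these cells, read 57.6 and 69.3 TPM at 6M, against 7.32, 9.2 and 54.6 TPM at 3W (log2 change 2.22 ± 0.53, adjusted p = 0.00657). Cd55, which protects cells from complement, read 444 and 604 TPM at 6M, against 98.4, 186 and 305 TPM at 3W (1.59 ± 0.33, adjusted p = 0.00178), and Anxa3, a calcium-dependent membrane-binding protein, 487 and 659 TPM at 6M, against 94.7, 200.3 and 289 TPM at 3W (1.51 ± 0.36, adjusted p = 0.00621). Ly6c1, a surface protein of the Ly6 family, read 1203 and 829.96 TPM at 6M, against 59.1, 208 and 408 TPM at 3W (2.60 ± 0.55, adjusted p = 0.00239). All 6M values of these 4 genes exceeded the highest 3W value, although the highest 3W library for Dpp4, replicate 1, came close. Limch1, Efhd1 and Dact2 were the other 3 called, while Pi16, a defining gene of the same cells, read 1165 and 544 TPM at 6M, against 86.2, 837 and 1119.7 TPM at 3W (0.64 ± 0.71, adjusted p = 0.629). Only 2 of 17 were called with either 6M library left out: without replicate 1 the call was lost for Dpp4 (adjusted p = 0.0539), Ly6c1 (0.0654), Efhd1 (0.0914), Dact2 (0.219) and Limch1 (0.318), and without replicate 2 for Dpp4 (0.0922), Cd55 (0.0658), Anxa3 (0.127), Efhd1 (0.305) and Limch1 (0.0839). Ly6a, the stem cell antigen Sca-1, was higher at 1989 and 1926 TPM at 6M, against 178, 552 and 996 TPM at 3W (2.08 ± 0.54, adjusted p = 0.0128), with the same loss without replicate 1 (0.11) and replicate 2 (0.1). Ly6 genes resemble each other in sequence, so their reads could be shared.

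Several chemokines were higher. Ccl11 (ENSMUSG00000020676, chr11:82057823-82062955), the eosinophil attractant eotaxin made by fibroblasts, read 2099 and 4500.1 TPM at 6M, against 345, 671 and 897 TPM at 3W (log2 change 2.39 ± 0.34, adjusted p = 2.77e-05). Il34, a ligand of the macrophage growth receptor Csf1r, read 29.4 and 55.8 TPM at 6M, against 0.06, 2.33 and 8.39 TPM at 3W (3.89 ± 0.60, adjusted p = 7.94e-05). Ccl8, a monocyte chemokine, read 1460.04 and 226 TPM at 6M, against 0.8, 7.13 and 11.3 TPM at 3W (6.62 ± 0.80, adjusted p = 3.57e-06). Both 6M libraries were above all 3W libraries for these genes, each of which was called without either 6M library. Ccl2, the main monocyte attractant, read 1508 and 1167 TPM at 6M, against 73.8, 211 and 726 TPM at 3W (2.79 ± 0.72, adjusted p = 0.0125), and Ccl7, a related monocyte chemokine, 3263 and 1526 TPM at 6M, against 106, 257 and 1317 TPM at 3W (3.01 ± 0.76, adjusted p = 0.0104). Ccl2 lost its call without 6M replicate 1 (0.131) and without 6M replicate 2 (0.0774), and Ccl7 without replicate 1 (0.177). Saa3, an acute phase protein, read 4233 and 74.8 TPM at 6M, against 0, 4.55 and 19.6 TPM at 3W (6.57 ± 1.57, adjusted p = 0.0069), and its call was lost without replicate 1 (0.319). Of 30 chemokine and NF-kB response genes 8 were higher and 1, Ccl19, lower (median 0.67), with 3 higher without replicate 1 and 10 without replicate 2. Ccl19, which guides T cells and dendritic cells, lost its call after median-ratio scaling (0.0758), without replicate 1 (0.0975) and without replicate 2 (0.156). Ccl11, Ccl2 and Ccl7 were abundant at 3W already, while Ccl8 and Saa3 were low there.

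Several complement genes were higher. C3, the central component, which stromal cells also make, read 3575 and 689 TPM at 6M, against 158, 211 and 602 TPM at 3W (log2 change 2.51 ± 0.49, adjusted p = 0.00112), and lost its call without 6M replicate 1 (0.195). C1qb, a chain of the recognition protein made mainly by macrophages, read 594 and 194 TPM at 6M, against 3.05, 11.1 and 27.2 TPM at 3W (5.05 ± 0.59, adjusted p = 2.49e-06). C3 and C1qb were above every 3W library in both 6M libraries. In all 9 of 21 complement genes were higher and 1 lower (median 0.59), with 6 higher without 6M replicate 1, among them C1qa, C1qc, C3ar1 and C5ar1, which macrophages express.

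The MHC class II genes, which present antigen on professional antigen-presenting cells, were higher for 7 of 10 tested members and lower for 0 (median 3.57). The proximal promoters of the chain genes H2-Aa and H2-Eb1 are shown because both genes were low at 3W and their promoters hold the Y box, a CCAAT-type element of class II promoters, here the letters CTGATTGG in capitals. The sequences are from RefSeq (GRCm38.p6), the 250 bases before the start site, read 5′ to 3′ on the gene's strand: chr17:34287824-34288073 on the minus strand for H2-Aa and chr17:34305617-34305866 on the plus strand for H2-Eb1.
H2-Aa: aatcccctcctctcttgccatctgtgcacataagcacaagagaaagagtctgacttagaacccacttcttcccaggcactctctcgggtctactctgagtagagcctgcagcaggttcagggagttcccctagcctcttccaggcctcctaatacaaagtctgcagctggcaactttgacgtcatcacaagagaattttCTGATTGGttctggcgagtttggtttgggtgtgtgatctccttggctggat
H2-Eb1: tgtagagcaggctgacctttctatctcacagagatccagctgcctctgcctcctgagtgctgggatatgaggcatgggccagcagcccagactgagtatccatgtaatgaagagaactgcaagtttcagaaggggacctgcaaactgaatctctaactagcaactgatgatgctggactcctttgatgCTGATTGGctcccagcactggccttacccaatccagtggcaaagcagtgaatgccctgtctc
Searched on both strands, the motif begins 51 bases before the H2-Aa start and 62 before the H2-Eb1 start, and 3 of 8 class II windows hold it (H2-Oa is the other), against 3.83% of 32851 promoter windows. The match describes the letters only. At 3W, ATAC-seq peaks in the authors' lists overlapped the H2-Eb1 window in all 3 WT libraries and the H2-Aa window in 2.

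H2-Aa (ENSMUSG00000036594, chr17:34282744-34287823) read 553 and 282 TPM at 6M, against 0.13, 7.21 and 25.0 TPM at 3W (log2 change 6.20 ± 0.89, adjusted p = 3.15e-05). H2-Eb1 (ENSMUSG00000060586, chr17:34305867-34316674) read 319 and 183 TPM at 6M, against 0.14, 8.42 and 17.7 TPM at 3W (5.11 ± 0.82, adjusted p = 0.000134), and H2-Ab1, the beta chain that pairs with H2-Aa, 1197 and 778 TPM at 6M, against 1.7, 10.4 and 74.1 TPM at 3W (6.19 ± 0.88, adjusted p = 2.77e-05). Cd74, the invariant chain that escorts class II molecules, read 4028 and 1840.3 TPM at 6M, against 3.68, 36.7 and 112 TPM at 3W (6.65 ± 0.83, adjusted p = 5.05e-06). For all 4 genes both 6M libraries stood many times above the highest 3W library. The other 3 called were H2-DMa, H2-DMb1 and H2-DMb2, which load peptides. Macrophage markers were higher in the same 2 libraries, and their part in the class II values was not tested. Without 6M replicate 1 there were 5 higher, and without 6M replicate 2 there were 7. Ciita, the transactivator that class II expression depends on, was at 0.78 and 0.03 TPM at 6M, against 0, 0.02 and 0.55 TPM at 3W and was not called (0.26 ± 0.39, adjusted p = 0.724).

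Macrophage genes were higher as well. Lyz2, lysozyme of macrophages and neutrophils, read 1631 and 540.3 TPM at 6M, against 3.54, 16.4 and 26.2 TPM at 3W (log2 change 5.97 ± 0.61, adjusted p = 3.76e-07). Ctss, a lysosomal protease that trims the invariant chain, read 189 and 146 TPM at 6M, against 0.08, 1.02 and 7.32 TPM at 3W (5.97 ± 0.57, adjusted p = 1.41e-07). Tyrobp, the adaptor of myeloid activating receptors, read 199 and 117 TPM at 6M, against 1.17, 3.15 and 10.3 TPM at 3W (5.03 ± 0.56, adjusted p = 1.37e-06). All were called without either 6M library, and no 3W library reached the lower 6M value. Adgre1, the F4/80 antigen, read 69.0 and 8.23 TPM at 6M, against 0, 0.1 and 0.64 TPM at 3W (4.39 ± 0.58, adjusted p = 1.36e-05). Cd209f, a C-type lectin of the DC-SIGN family, read 377 and 91.4 TPM at 6M, against 0, 2.07 and 14.3 TPM at 3W (6.10 ± 1.07, adjusted p = 0.000356). Retnla, a secreted product of alternatively activated macrophages in mice, read 252 and 561 TPM at 6M, against 0, 11.6 and 19.4 TPM at 3W (5.83 ± 1.33, adjusted p = 0.00488), and lost its call without 6M replicate 2 (0.093). Of 20 macrophage markers 16 were higher and 0 lower (median 3.58), with a summed TPM of 4582 and 2526 at 6M, against 267, 473 and 649 at 3W. Without 6M replicate 1 there were 13 higher, and without 6M replicate 2 there were 14. Csf1r, the receptor for Il34, read 23.4 and 3.88 TPM at 6M, against 0.1, 2.05 and 6.87 TPM at 3W and missed the threshold (1.90 ± 0.69, adjusted p = 0.0717).

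Lymphocyte and plasma cell genes were higher and differed most between the 6M libraries. Igkc, the immunoglobulin kappa constant segment, read 38603 and 751 TPM at 6M, against 0, 1.27 and 18.1 TPM at 3W (log2 change 10.49 ± 1.76, adjusted p = 0.000221). Jchain, which joins IgA and IgM, read 2487 and 84.2 TPM at 6M, against 0, 0.46 and 1.51 TPM at 3W (8.32 ± 1.5, adjusted p = 0.000446). Mzb1, a chaperone of plasma cells, read 361 and 4.73 TPM at 6M, against 0, 0 and 0.66 TPM at 3W (5.40 ± 0.92, adjusted p = 0.000272). Both 6M libraries exceeded all 3W libraries, by far more in replicate 1 than in replicate 2. Without replicate 1 the calls ended for Jchain (0.0719) and Mzb1 (0.124) but not for Igkc (0.0445). Immunoglobulin genes made up 10.7% and 0.186% of all TPM at 6M, against at most 0.00646% at 3W. Cd3d, a T cell receptor subunit, read 2.55 and 1.81 TPM at 6M and was listed at 0 in all 7 3W libraries. Of 18 tested markers 10 were higher and 0 lower, with 4 higher without replicate 1 and 12 without replicate 2, and their summed TPM was 51102 and 914 at 6M, against 4.16, 24.4 and 50.1 at 3W. Slpi, a protease inhibitor of epithelia and neutrophils, showed the same imbalance at 866 and 1.97 TPM at 6M, against 0, 0.33 and 1.54 TPM at 3W (5.21 ± 1.19, adjusted p = 0.00497), with adjusted p = 0.648 without replicate 1.

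**Figure D4:**
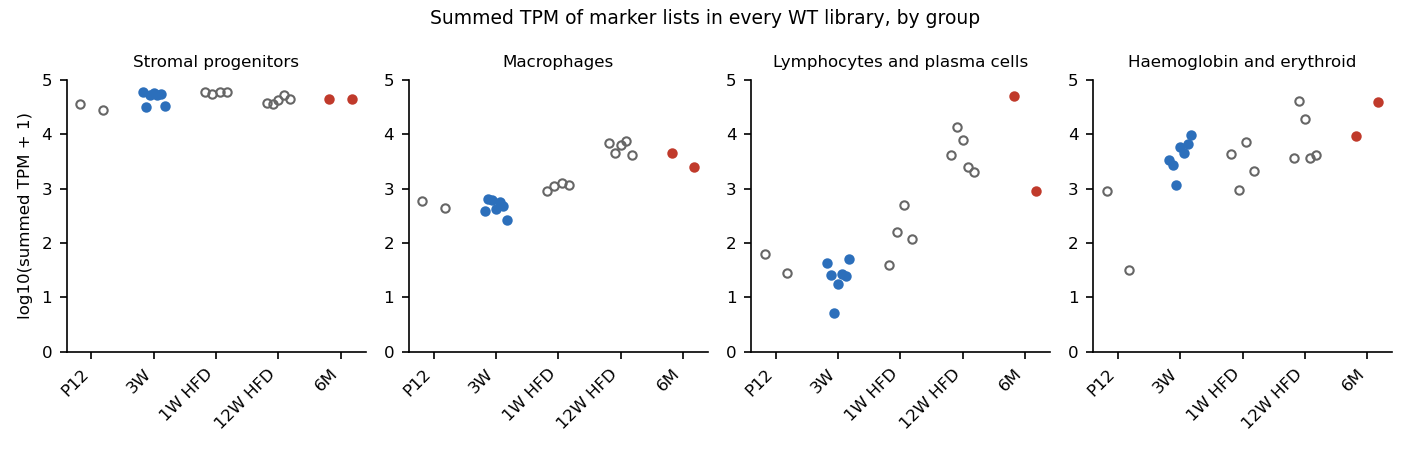
Points are log10(summed TPM + 1) (y axis) of the stromal, macrophage, lymphocyte and plasma cell, and haemoglobin lists in each WT library, by group in order of age and diet (x axis). The macrophage sum was 4582 and 2526 TPM at 6M, above every 3W library (267 to 649), while the stromal sum at 6M (44040 and 44334) lay inside the 3W range (31728 to 59958).

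Interferon response genes were higher for 5 of 32 (15.6%, against 4.00% of all genes) and lower for 0 (median 0.67). Psmb8, a subunit of the immunoproteasome, read 396 and 144 TPM at 6M, against 34.9, 97.9 and 123 TPM at 3W (log2 change 1.49 ± 0.39, adjusted p = 0.0132). Oas1a, an antiviral sensor, read 33.8 and 13.1 TPM at 6M, against 0, 1.77 and 7.41 TPM at 3W (3.17 ± 0.79, adjusted p = 0.00943). Both genes were above the 3W range in both 6M libraries. Ifi35, B2m and Psmb9 were the other 3. Without replicate 1 each of the 5 lost its call (adjusted p = 0.433 for Psmb8, 0.183 for Oas1a, 0.211 for Psmb9, 0.536 for B2m and 0.144 for Ifi35), and B2m was also not called after quantile scaling (0.0788).

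Levels of other cell types beside these results were as follows. Of 19 endothelial markers 1 was higher (5.26%, against 4.00% of all genes) and 2 lower (10.5%, against 6.85%). Their sums were 285 and 319 TPM at 6M, against 235, 339 and 436 TPM at 3W. Of 13 mesothelial markers 2 were lower, with sums of 205 and 86.0 TPM at 6M, against 242, 338 and 400 TPM at 3W. Haemoglobin and erythroid transcripts summed to 9169 and 39167 TPM at 6M, against 1145, 4580 and 9524 TPM at 3W. Of the 626 genes called higher, 397 had a larger value in 6M replicate 1 than in replicate 2. The same count was not made over all tested genes, so a general difference between the 2 libraries is not set apart. The part of immune, mesothelial or red cell RNA in the changes above was not tested. With immunoglobulin, T cell receptor, macrophage, lymphocyte and class II genes left out and the columns rescaled, a setting chosen after seeing the data, 553 genes were higher and 836 lower, and the Tcf21 log2 change was -3.71.

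Values of the same genes in the other groups titled WT place the 6M levels, although the genotype field reads Tcf21 KO for both postnatal day 12 libraries, all 4 libraries at 1 week of high-fat diet and 3 of 5 at 12 weeks. Tcf21 read 42.3 and 48.1 TPM at postnatal day 12 (P12), a median of 47.6 TPM at 3W, 11.3 to 47.4 TPM in mice fed a high-fat diet (HFD) for 1 week from 6 weeks of age, 5.86 to 13.5 TPM after 12 weeks of HFD, and 2.24 and 5.54 TPM at 6M. Dlk1 read 255 and 259.9 TPM at P12, a median of 195 TPM at 3W, 1.98 to 4.32 TPM after 1 week of HFD, 0 to 1.07 TPM after 12 weeks and 0.73 and 0.53 TPM at 6M. Ages differ between all these groups and diet differs for 2 of them, so age and diet cannot be told apart across the series. Mest read 223 and 183 TPM at P12, a median of 118 TPM at 3W, 36.2 to 91.9 TPM after 1 week of HFD, 3.59 to 16.0 TPM after 12 weeks and 20.7 and 17.1 TPM at 6M. Dlk1 was thus already within a few TPM of its 6M level after 1 week of HFD, and every HFD library was below the 3W median for Mest. Lists with members higher at 6M are placed by summed TPM. The Dpp4-type sum was 9980 to 12690 after 1 week of HFD, 6244 to 8103 after 12 weeks, and 9758 and 8798 at 6M. The macrophage sum was 904 to 1291, 4214 to 7656, and 4582 and 2526 in the same order. The class II sum was 659 to 894, 2163 to 12026, and 6229 and 3165.

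**Figure D5:**
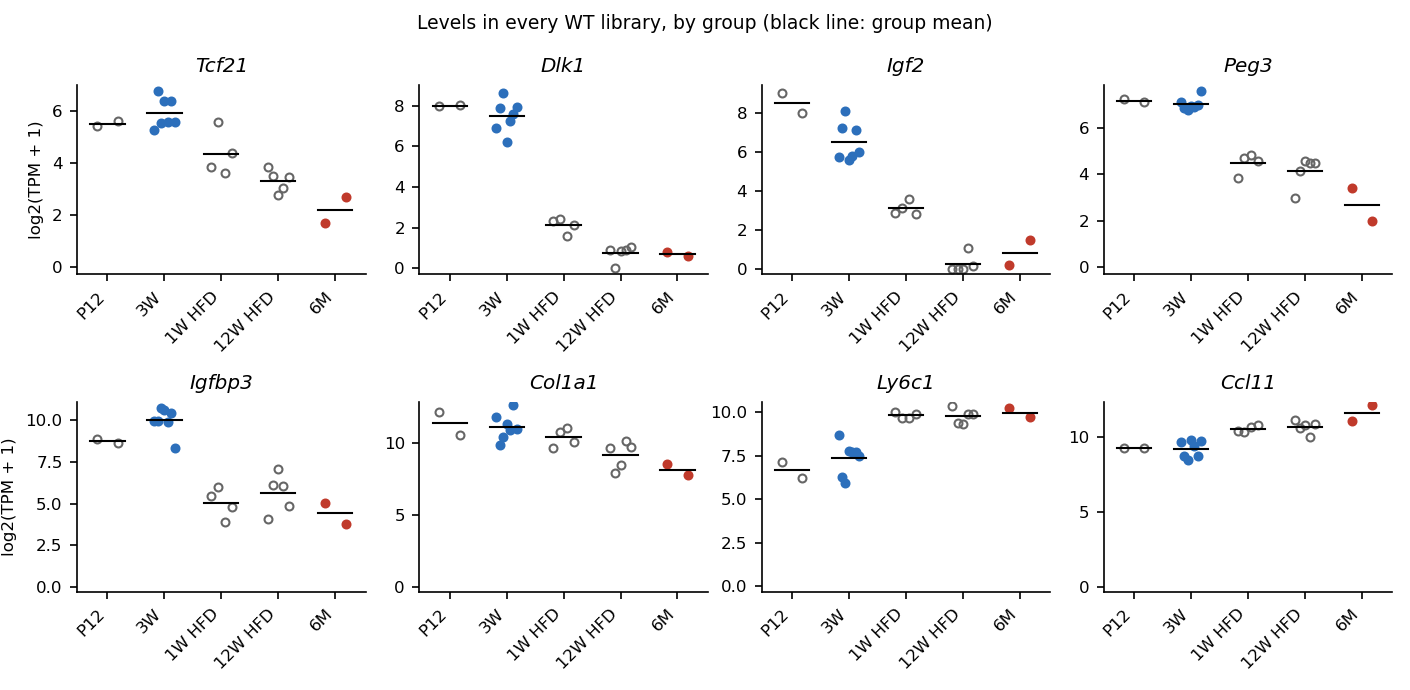
Log2(TPM + 1) (y axis) of Tcf21, Dlk1, Igf2, Peg3, Igfbp3, Col1a1, Ly6c1 and Ccl11 in every WT library, in the order P12, 3W, 1 week HFD, 12 weeks HFD and 6M (x axis), with a line at each group's mean. Tcf21, Dlk1, Igf2 and Peg3 are high at P12 and 3W and lowest or near lowest at 12 weeks of HFD and 6M, whereas Ly6c1 and Ccl11 at 6M lie above all 3W libraries.

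Set against the 12 weeks HFD group (5 libraries), which shares the 6M libraries with the comparison above, 6M had 28 genes higher (0.179%) and 110 lower (0.702%). Median-ratio scaling gave 45 higher and 60 lower, and quantile scaling 41 and 48, so the balance of directions depended on the scaling here too. There were 100 higher and 46 lower without 6M replicate 2, and 16 and 53 without replicate 1 of the 12 weeks HFD group. Single-gene calls of this contrast were not refitted under another scaling or with a library left out. Lower at 6M were Trem2, a lipid receptor of macrophages, at 3.62 and 26.8 TPM at 6M, against 46.2 to 330.2 TPM after 12 weeks of HFD (log2 change -3.50 ± 0.71, adjusted p = 0.0143), and Lgals3, the lectin galectin-3, at 84.8 and 169.6 TPM at 6M, against 349 to 1396 TPM after 12 weeks of HFD (-2.79 ± 0.52, adjusted p = 0.00688).

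At 3W, open chromatin at promoters was seen for most genes that were lower at 6M and for fewer that were higher. Of genes with a RefSeq promoter window of 300 bases, 93.8% of 824 lower genes and 46.3% of 410 higher genes had a peak in all 3 WT 3W ATAC-seq libraries, against 85.3% of 11311 tested genes. Genes differ in 3W level, which moves with these shares. Among genes with a mean of at least 30 TPM at 3W the shares were 96.0% of 405 lower, 94.4% of 89 higher and 98.0% of 3386 tested genes. Among genes under 5 TPM at 3W they were 19.3% of 244 higher and 63.2% of 3805 tested genes. Levels still differed within that bin, with a median 3W level of 0.357 TPM for its higher genes and 1.22 TPM for its tested genes. The series holds no ATAC-seq library at 6M, and the ATAC-seq libraries are other samples than the RNA libraries.

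Promoter peaks of single genes and of lists are given next, and 3W level moves with these too. The authors' peak fold enrichment at the Tcf21 promoter was 50.4, 20.2 and 21.6 in the 3 libraries, at the Peg3 promoter 81.6, 54.6 and 60.6, and at the Igfbp3 promoter 73.2, 34.4 and 49.8. At Dlk1 a peak was listed in 2 libraries (21.5 and 8.90). Among higher genes, the Cd55 promoter had folds of 75.2, 38 and 56.8. No peak overlapped the windows of Lyz2, Ctss, C1qb, C1qc, Jchain, Saa3, Retnla or Slpi in any of the 3 libraries. By list, a peak in all 3 libraries was found for 13 of 14 Dpp4-type genes, 15 of 17 imprinted genes and 10 of 11 smooth muscle genes. It was found for 2 of 13 macrophage genes and 0 of 10 lymphocyte and plasma cell genes, against 85.3% of all tested genes. The median 3W level of these genes was 129, 28.2 and 18.8 TPM for the first 3 lists, and 3.59 and 0.291 TPM for the last 2.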

How the data were processed

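RNA-seq values were used as deposited, as TPM per gene computed by the authors, and 9 samples were ATAC-seq, deposited as peak lists with a fold enrichment (a ratio over background) per peak. The submitters' processing notes name Trim Galore 0.6, FastQC, STAR 2.5.3a, RSEM, Bowtie2 2.3, MACS2 and the mm10 build. The annotation, strand setting and peak thresholds are not given in the sources used here. No counts were used, so the depth is unknown and no interval for counting error can be given. Groups were taken from the sample titles.

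Genes that reached 1 TPM in 2 or more of the 29 RNA-seq libraries, 15659 of 25746, were analysed as log2(TPM + 1) with limma 3.58.1 in R 4.3.3. One mean was fitted for each of 8 groups with a shared spread (21 residual degrees of freedom), a mean-variance trend and Benjamini-Hochberg adjustment over all tested genes. The pseudocount understates the change of low genes. The script was tested on simulated data. A single value, Tcf21, was also tested by exact permutation over libraries.

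The comparison and its gene lists were chosen with earlier results of these data known. Named genes were Tcf21, up to 15 leading genes per direction (10 TPM or more in the mean of the higher group, ages not overlapping, called, by size of change, without predicted genes and immunoglobulin segments), and up to 4 genes per list by adjusted p. Where fewer than 2 members of a list were called, its 2 most abundant genes were eligible too. Adgre1, Agtr2, C3, Ccl2, Ccl7, Ciita, Csf1r, Dcn, Grb10, Hoxa5, Lepr, Lgals3, Mest, Mki67, Pdgfra, Pi16, Plagl1, Pparg, Prlr, Sfrp4 and Trem2 fall outside that rule or its limits and were picked after their values were seen. Immunoglobulin, haemoglobin, Ly6, C4 and class I MHC genes have near-identical relatives, between which reads could be split, so their values are uncertain.

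Promoter windows came from RefSeq (GRCm38.p6), and a peak counted when it overlapped the 300-base window by at least 1 base. Alternatives covered the pseudocount, filter, scaling, spread estimate, libraries in the fit, a replicate block and leaving out each library in turn. Other groups of the series were not analysed here beyond the values given, and some items are not reported here.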

Additional observations from a re-analysis of the deposited data

Results flagged for a closer look

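Among 76 sets of 7 values from the 3W libraries (leading genes, Tcf21 and list means), 4 had 1 library standing apart from the other 6 by more of the range than Dixon's 95% critical value, and chance alone gives about 1 in 20. Igfbp3 was lowest in 3W replicate 7 at 322.3 TPM, with the other 6 libraries between 940 and 1750 TPM, and even this value was above the 32.4 and 12.9 TPM of the 6M libraries. Mzb1 was 0.66 TPM in 3W replicate 7 and listed at 0 in the other 6. Replicate 2, whose genotype field reads Tcf21 KO, stood apart with a mean log2 level of 4.055 for the positional transcription factors and of 2.982 for the skeletal muscle list.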

How the results depend on the processing

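Of the 129 called genes named by the rule, 0 changed direction in the settings that gave them a value, and 78 were still called without 6M replicate 1 and 90 without 6M replicate 2. For 6M against 3W, median-ratio scaling gave 1001 genes higher and 563 lower, and quantile scaling 766 and 590. The compared groups alone gave 367 and 436, and a limma test against a log2 change of 1 gave 123 and 85. Leaving out 1 library gave 252 to 623 higher and 363 to 1236 lower. For 6M against 12 weeks of HFD, higher genes numbered 13 with a pseudocount of 0.1, 65 with 5 and 45 after median-ratio scaling, and lower genes 60 after median-ratio and 48 after quantile scaling. Leaving out 1 library there gave 16 to 100 higher and 46 to 156 lower. The cause of these shifts was not tested, except that fewer libraries or a minimum change remove calls by construction.

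The replicate block gave 503 higher and 829 lower against 3W, and 21 higher and 58 lower against 12 weeks of HFD. Same-numbered libraries share only a number, and their deviations correlated at 0.0273 and 0.146 (6M and 3W) and at 0.209 and -0.0879 (6M and HFD). Tcf21 changed by -4.247 to -3.233 with 1 library left out. Its exact permutation p was then 0.125 with a single 6M library, the smallest possible, and 0.0357 without a 3W library. Without 3W replicates 1 and 2, 560 genes were higher and 1078 lower, and the Tcf21 p was 0.0476.

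With 2 libraries at 6M, genes whose 6M values differ widely, such as Jchain and Saa3, have poorly known changes. Low genes are further limited by the unknown depth.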
